A study of Bos taurus with 111 samples.

Results

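MYH6, MYL6B and CSRP3 are 3 muscle genes, called slow-type here after their described roles. They were chosen by their Ensembl identifiers (ENSBTAG00000040053, ENSBTAG00000031217 and ENSBTAG00000011869) out of the 24616 genes counted. Whether they mark slow fibres in these libraries was not tested. The 3 genes were followed across breed, dietary phase and residual feed intake (RFI), and between steers, in 104 of the 111 RNA-seq libraries of the series. All libraries came from biopsies of longissimus muscle of steers, and RFI is the difference between the feed an animal ate and the feed expected from its size and growth. A low value (L-RFI) marks an efficient steer and a high value (H-RFI) an inefficient one.

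The steers were Charolais (CH), a beef breed, or Holstein Friesan (HF), a dairy breed, with a mean age of 283 d for CH and 306 d for HF at the start of the first phase. All steers went through the same 3 feeding phases of 70 d in the same order, numbered 1, 3 and 4 in the labels. These were a high concentrate diet while growing (H1), zero-grazed grass (ZG), for which grass is cut and carried to the animals, and the high concentrate diet again while finishing (H2). Phase was therefore confounded with age, and the effects of diet and age cannot be told apart. The classes are the extremes of each breed's ranking and were set anew in each phase, so a steer could be L-RFI in 1 phase and H-RFI in another, as 8 steers were. The retained libraries came from 77 steers, of which 52 gave 1 library, 23 gave 2 and 2 gave 3. The 12 groups of 1 breed, phase and RFI class held 7 to 11 steers.

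Slow fibres contract slowly and rely on oxidative metabolism, and their sarcomeres are built from isoforms that partly overlap with those of the heart. MYH6 encodes the alpha myosin heavy chain, a motor protein of the thick filament best known from heart atria. MYL6B encodes a slow-type alkali light chain, which binds the neck of the myosin heavy chain. CSRP3 encodes the muscle LIM protein, which sits at the Z-disc, where thin filaments of neighbouring sarcomeres are anchored. MYH6 has a close neighbour on the same chromosome, MYH7, whose sequence is highly similar, so short reads may not always be assigned to the right copy. MYH6 levels are uncertain for that reason, and MYH7 was not analysed here.

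The retained libraries held between 2201765 and 52552057 gene counts, with a median of 15852126. Levels are given as normalised CPM, that is, each gene's counts divided by the library's gene counts in units of 1000000, after scaling by trimmed mean of M-values (TMM) factors, which ranged from 0.516 to 1.68. CPM carries no gene length, so levels are compared between libraries and not between genes. The 3 genes were well covered, with at least 358 counts of MYH6, 96 of MYL6B and 75 of CSRP3 in every retained library. The symbols of 0 of the 7 markers of skeletal muscle identity could be paired with an identifier, and the labelled tissue was not checked with that list. The cells of a biopsy are mixed, so more slow fibres and more RNA per fibre cannot be told apart in any of these values. The labels give no sequencing batch.

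MYH6 was the steadiest of the 3 genes. Its level ran from 63.2 normalised CPM in steer 5617 (HF, H2) to 1138 in steer 545 (CH, ZG), an 18-fold range, with a median of 302. In CH, the lowest, median and highest levels were 98.5, 266 and 619 in H1 (n = 18), 177, 310 and 1138 in ZG (n = 17), and 124, 274 and 564 in H2 (n = 14). In HF they were 84.9, 328 and 882 in H1 (n = 20), 167, 263 and 868 in ZG (n = 19), and 63.2, 387 and 832 in H2 (n = 16). The ranges of all 15 pairs of breed and phase groups overlapped, neighbours in the order of medians included, and the highest median was 1.47 times the lowest. Within the 12 groups, the SD of MYH6 was 0.78 on the log2 scale, more than that of 72.4% of the 10291 genes tested, whose median SD was 0.61.

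MYL6B varied far more between steers. It ran from 10.2 normalised CPM in steer 5588 (HF, H2) to 1848 in steer 5632 (HF, ZG), a 182-fold range, with a median of 172. In CH, the lowest, median and highest levels were 86.3, 229 and 655 in H1, 48.9, 168 and 624 in ZG, and 69.7, 185 and 681 in H2. In HF they were 27.0, 121 and 1168 in H1, 82.9, 188 and 1848 in ZG, and 10.2, 156 and 748 in H2. All 15 pairs of these groups overlapped, and the highest median was 1.89 times the lowest. The within-group SD was 1.29 on the log2 scale, and 98.1% of the genes tested varied less than MYL6B.

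CSRP3 also varied widely. Its level ran from 9.06 normalised CPM in steer 5588 (HF, H2), the same library that was lowest for MYL6B, to 1665 in steer 2272 (HF, ZG), a 184-fold range around a median of 157. In CH, the lowest, median and highest levels were 39.1, 152 and 477 in H1, 81.1, 165 and 533 in ZG, and 39.5, 101 and 542 in H2. In HF they were 39.7, 152 and 670 in H1, 73.8, 214 and 1665 in ZG, and 9.06, 218 and 488 in H2. All 15 pairs of groups overlapped, with a highest median 2.17 times the lowest. The within-group SD was 1.19 on the log2 scale, and 96.6% of the genes tested varied less.

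**Figure D1:**
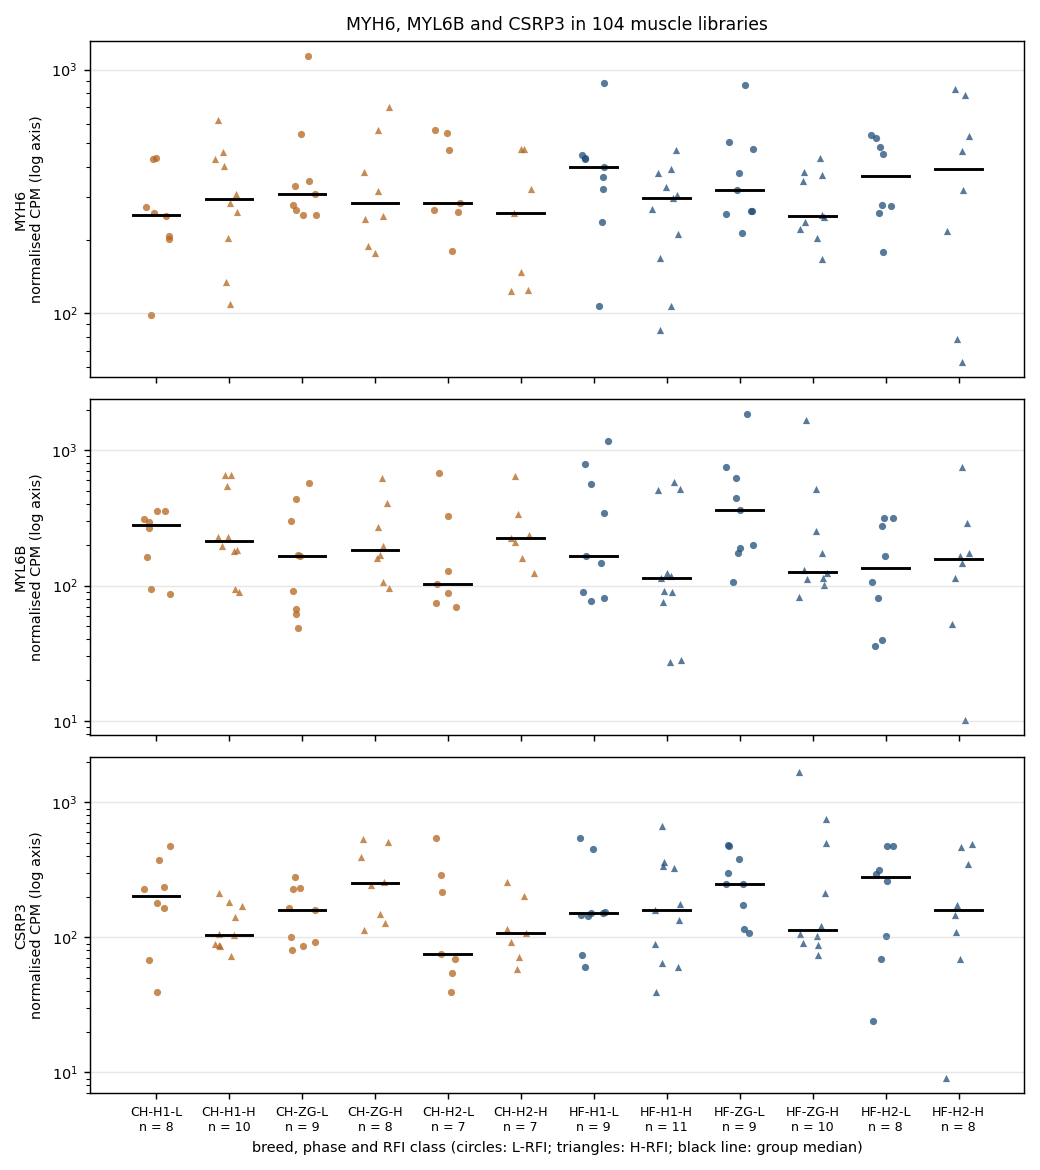
Normalised CPM (log axis) of MYH6, MYL6B and CSRP3 in each of the 104 retained libraries, by breed, phase and RFI class. Circles are L-RFI steers, triangles H-RFI steers, brown CH, blue HF, and black lines group medians. All 12 groups overlap for each gene, MYH6 spans 63.2 to 1138, and the lowest MYL6B and CSRP3 points (10.2 and 9.06) are the same H-RFI steer of HF in H2.

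The question of the study was how efficient and inefficient steers differ, and 1 comparison of L-RFI with H-RFI steers was made in each breed and phase. None of the 3 genes differed between the RFI classes in any of the 6 comparisons (edgeR's quasi-likelihood test, adjusted p under 0.1 and a fold change above 1.5). Over all genes, 0% were called in each comparison. The number of genes with an unadjusted p under 0.05 was 216 in CH in H1, 79 in CH in ZG, 89 in CH in H2, 317 in HF in H1, 1228 in HF in ZG and 72 in HF in H2. edgeR's exact test called 2, 0, 1, 0, 0 and 0 genes in the same order, and DESeq2 called 2, 0, 2, 0, 1 and 0, with none of the 3 genes among them.

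CSRP3 gave the smallest unadjusted p-values of the members, in opposite directions in 2 phases of the same breed. In CH in H1, its lowest, median and highest levels were 39.1, 204 and 477 in the 8 L-RFI steers and 72.7, 105 and 214 in the 10 H-RFI steers. The log2 difference, L-RFI minus H-RFI, was 0.81 (SE 0.36), with an adjusted p of 1.00. In CH in ZG, the levels were 81.1, 161 and 278 in the 9 L-RFI steers and 114, 251 and 533 in the 8 H-RFI steers, with a log2 difference of -0.88 (SE 0.35) and an adjusted p of 1.00. The classes overlapped in both phases, with the L-RFI median above the H-RFI median in H1 and below it in ZG. The median difference of the tested markers was 0.98 over 8 hepatocyte, -0.54 over 6 immune and -0.65 over 4 adipocyte genes in H1, and -0.48 over 8 hepatocyte and -2.22 over 2 adipocyte genes in ZG, none of them called, and their part was not tested. In the other 4 comparisons the log2 difference of CSRP3 lay between -0.42 and 0.49. At both ends the medians went against the sign. They were 247 in L-RFI and 114 in H-RFI steers of HF in ZG (-0.42), and 75.6 and 108 in CH in H2 (0.49).

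In HF, MYH6 and MYL6B had higher medians in L-RFI steers in H1 and in ZG. MYH6 ran from 107 over a median of 399 to 882 in the 9 L-RFI steers of HF in H1, and from 84.9 over 297 to 468 in the 11 H-RFI steers. MYL6B ran there from 77.5 over 167 to 1168 in L-RFI steers and from 27.0 over 113 to 584 in H-RFI steers. The log2 differences were 0.58 (SE 0.31) for MYH6 and 0.92 (SE 0.60) for MYL6B in H1, and 0.45 (SE 0.26) and 0.66 (SE 0.60) in ZG, none of which was called (lowest adjusted p 0.38). The groups overlapped for both genes. Single libraries set the size of these differences. In ZG, MYL6B was 0.13 without L-RFI steer 5632 and 1.53 without H-RFI steer 2272, and MYH6 was 0.22 without steer 5632. In H1, MYL6B was 0.42 without L-RFI steer 5632, and MYH6 was 0.36 without L-RFI steer 2259. In the remaining comparisons MYH6 differed by -0.26 to 0.42 and MYL6B by -0.38 to -0.27 on the log2 scale, with standard errors of 0.31 to 0.64. For MYL6B in CH in H1 (-0.34), the medians went the other way, with 279 in L-RFI and 213 in H-RFI steers.

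Some lists of markers of other cells also had a median log2 difference away from that of all genes between the RFI classes of HF. None of the markers was called, and the ranges of the sums overlapped. For hepatocyte and adipocyte markers in ZG, and adipocyte and immune markers in H1, the group medians of the sum went against the sign of the difference. The immune medians in H1 were close, 13.0 in L-RFI and 13.5 in H-RFI steers. In ZG, the median log2 difference, L-RFI minus H-RFI, was -2.32 over 8 hepatocyte markers, -1.36 over 6 immune markers and 0.02 over 4 adipocyte markers, against -0.03 over all genes. The summed hepatocyte level ran from 32.6 over a median of 213 to 621 normalised CPM in L-RFI steers and from 25.1 over 184 to 10554 in H-RFI steers, and the summed immune level from 2.5 over 6.39 to 60.8 and from 4.54 over 18.4 to 94.1. The summed adipocyte level ran from 4.9 over 7.82 to 148 in L-RFI steers and from 4.27 over 22.7 to 130 in H-RFI steers. SOX18 differed by 1.13 (SE 0.55). PLN, a slow-fibre gene, had a difference of -1.24 (SE 0.43, edgeR's quasi-likelihood test, adjusted p = 0.38), opposite in sign to those of MYH6 and MYL6B, and ACTC1 had one of 1.76 (SE 0.74, adjusted p = 0.38). In H1, the median was -1.28 over the adipocyte markers, whose sum ran from 2.2 over 15.0 to 40.4 in L-RFI steers and from 4.09 over 12.9 to 242 in H-RFI steers, 0.29 over the hepatocyte markers and 0.12 over the immune markers. The part of these cells in the differences of MYH6 and MYL6B was not tested.

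A single fit of all retained libraries with the steer as a block (limma voom) gave an RFI difference over all phases and breeds of 0.28 (SE 0.15) for MYH6, 0.15 (SE 0.25) for MYL6B and 0.11 (SE 0.23) for CSRP3, with adjusted p-values of 0.54, 0.75 and 0.80. This fit called 0% of 10291 genes, and 719 had an unadjusted p under 0.05. Whether the RFI difference itself changed between the 6 comparisons was also tested. The F statistics were 0.57 for MYH6, 1.29 for MYL6B and 0.68 for CSRP3 (adjusted p = 1.00 for each), and 0% of genes were called, with 107 at an unadjusted p under 0.05.

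The breeds were compared within each phase by the same fit. MYH6 was nearly level between HF and CH, with log2 differences (HF minus CH) of 0.12 (SE 0.25) in H1, -0.04 (SE 0.25) in ZG and 0.19 (SE 0.27) in H2. MYL6B differed by -0.46 (SE 0.41), 0.60 (SE 0.42) and -0.52 (SE 0.45) in the same order, and CSRP3 by 0.22 (SE 0.37), 0.33 (SE 0.38) and 0.41 (SE 0.42). None of these 9 differences was called (lowest adjusted p 0.47). Over all genes, 0.253% were called in H1, 1.67% in ZG and 0.194% in H2. The MYH6 difference in ZG became 0.36 with all libraries, a setting that adds steer 571 (CH, ZG) with 7 counts of MYH6. Without TMM factors it became 0.24, while the median difference of all genes moved from 0.05 to 0.31. The interaction of breed and phase was called for 0% of genes (534 at an unadjusted p under 0.05), and its F statistic was 2.29 for MYL6B, 0.21 for MYH6 and 0.06 for CSRP3.

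Phases were compared within each breed, and 1 of the 18 differences of the 3 genes was called. MYL6B fell from ZG to H2 in HF by 1.06 on the log2 scale (SE 0.42, limma voom, adjusted p = 0.0943), where 6.91% of all genes were called, 94 higher and 617 lower. Its level ran from 82.9 to 1848 in ZG and from 10.2 to 748 in H2, with means of 419 ± 510 (SD, n = 19) and 189.7 ± 180.1 (SD, n = 16). The ranges overlapped widely, and the medians of 188 and 156 differed by only -0.27 on the log2 scale. The highest ZG libraries, those of steers 5632 (1848) and 2272 (1664), and the lowest H2 library, that of steer 5588 (10.2), lay at opposite ends.

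The call depended on single libraries. It was lost when any 1 of 18 of the 35 HF libraries of these phases was left out (adjusted p 0.0574 to 0.169 over all 35, log2 difference -1.23 to -0.83), and with all libraries, without the filter on low counts, with unstranded counts and with sample quality weights. Only 2 steers had a library in both groups. In steer 1639, MYL6B was 129 in ZG and 164 in H2, and in steer 5612 it was 107 in ZG and 35.7 in H2.

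Markers of other cells were looked at beside this result. The 4 adipocyte markers that could be paired with an identifier were all called higher in H2 than in ZG in HF, with a median log2 difference of 1.35. Their summed level ran from 4.27 over a median of 22.5 to 148 normalised CPM in ZG and from 16.8 over 46.3 to 233 in H2. The summed level of 6 immune markers ran from 2.5 over 8.88 to 94.1 in ZG and from 2.75 over 6.10 to 105 in H2. For 8 hepatocyte markers it ran from 25.1 over 210 to 10554 in ZG and from 34.9 over 170 to 1911 in H2. The endothelial marker SOX18 ran from 0 over 2.51 to 13.4 in ZG and from 0 over 2.11 to 7.35 in H2. The part of these cells in the difference of MYL6B was not tested.

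The other 17 phase differences of the 3 genes did not pass the test. From H1 to ZG, MYH6 differed by 0.31 (SE 0.25) in CH and 0.14 (SE 0.24) in HF, MYL6B by -0.36 (SE 0.42) and 0.69 (SE 0.39), and CSRP3 by 0.40 (SE 0.38) and 0.52 (SE 0.36), where 2.32% of genes were called in CH and 0.651% in HF. From ZG to H2 in CH, where 1.07% of genes were called, the differences were -0.24 (SE 0.26), 0.06 (SE 0.44) and -0.64 (SE 0.40) for MYH6, MYL6B and CSRP3. In HF, MYH6 differed by -0.01 (SE 0.25) and CSRP3 by -0.56 (SE 0.39) over the same step. The medians there were higher in H2 than in ZG, 387 against 263 for MYH6 and 218 against 214 for CSRP3. By this fit, the 2 high concentrate phases, H1 and H2, were closest in CSRP3 of HF, at -0.04 (SE 0.38, medians 152 and 218). Their other differences, H2 minus H1, were 0.07 (SE 0.26) for MYH6, -0.30 (SE 0.43) for MYL6B and -0.23 (SE 0.40) for CSRP3 in CH (2.58% of genes called), and 0.13 (SE 0.25) for MYH6 and -0.37 (SE 0.41) for MYL6B in HF (16.2% called). In HF, the medians of MYH6 from H1 to ZG (328 and 263) and of MYL6B from H1 to H2 (121 and 156) went against the sign. Without TMM factors, the median difference of all genes from H1 to H2 in HF moved from -0.07 to -0.49, and the MYH6 difference became -0.25.

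**Figure D2:**
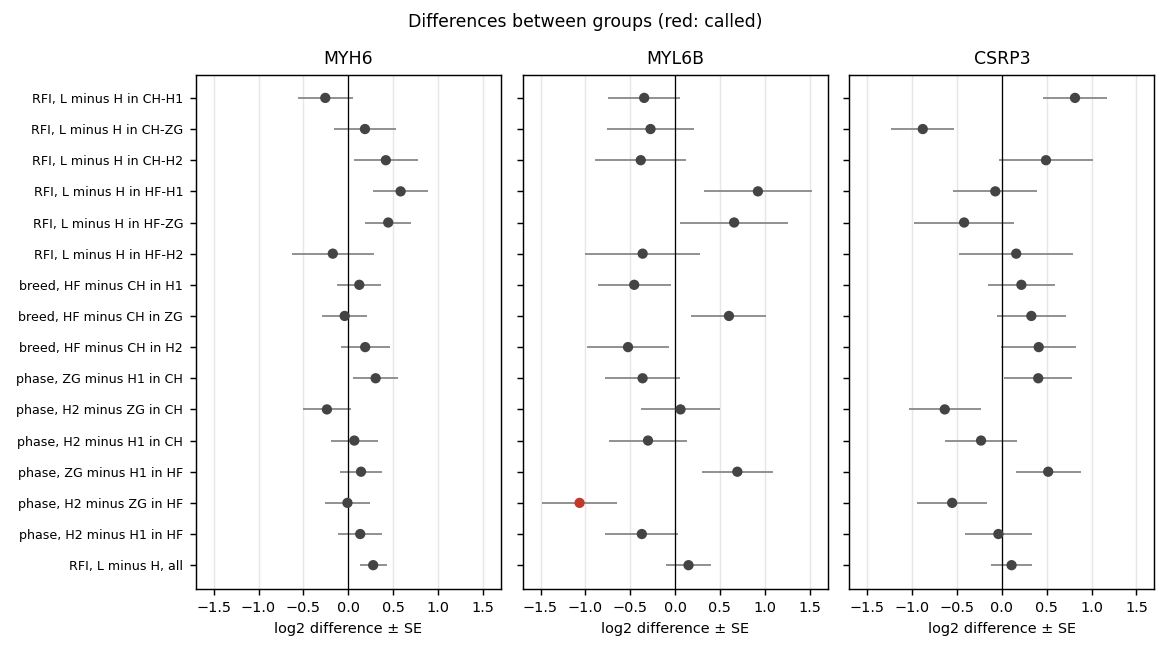
Log2 differences (points) with standard errors (bars) of MYH6, MYL6B and CSRP3 in each comparison of RFI class, breed and phase. The only called difference, in red, is that of MYL6B between H2 and ZG in HF (-1.06), and the 3 genes otherwise lie within -0.88 to 0.92.

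Few other genes of the muscle lists had a symbol paired with an identifier. Of 12 further slow and cardiac sarcomere genes, 2 could be measured, namely TNNT2, cardiac troponin T, and ACTC1, the cardiac alpha-actin that skeletal muscle also makes in development. ACTC1 was called in 2 comparisons. It was higher in HF than in CH in ZG by 1.31 (SE 0.42, limma voom, adjusted p = 0.0806), where 1.67% of all genes were called, and it fell from ZG to H2 in HF by 1.30 (SE 0.42, adjusted p = 0.0352), where 6.91% were called. TNNT2, with a median of only 1.10 normalised CPM, fell from H1 to H2 in CH by 0.80 (SE 0.26, adjusted p = 0.0724), where 2.58% were called. From ZG to H2 in HF, 1 of these 2 genes was called lower and 0 higher, beside 617 lower and 94 higher of all 10291 genes, with a median log2 difference of -0.95 against -0.05 over all genes.

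PLN, phospholamban, a brake on the calcium pump of slow and cardiac muscle, was the only 1 of 8 slow-fibre calcium handling genes to be paired. It was called in none of the breed and phase comparisons, with a log2 difference of -0.33 (SE 0.39) from ZG to H2 in HF. MYH4, a fast myosin heavy chain, was the only gene paired of 14 on the fast list, and MYH8, the perinatal myosin heavy chain, the only 1 of 4 on the developmental list. Neither was called, and from ZG to H2 in HF they differed by 0.38 (SE 0.55) and -0.29 (SE 0.39). None of the 11 Z-disc genes of the list could be paired.

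The 25 steers with more than 1 retained library show how far a level went with the animal. The within-steer correlation, estimated after breed, phase and RFI class were accounted for, was 0.24 for MYH6, 0.28 for MYL6B and -0.02 for CSRP3. Over 10290 genes the median was 0.12, with quartiles of 0.01 and 0.25. MYL6B was higher than 80.1% of genes on this measure, MYH6 than 74.1% and CSRP3 than 18.2%.

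Of the 29 pairs of libraries of the same steer, MYH6 lay on the same side of its group means in 18, MYL6B in 17 and CSRP3 in 12. Steer 5632 of HF had the highest MYL6B in ZG (1848) and the third highest of all libraries in H1 (1168). Its CSRP3 stayed at 145 in H1 and 247 in ZG, well within the range of its groups. Steer 1100 of CH, sampled in all 3 phases, had 353, 574 and 641 of MYL6B in H1, ZG and H2, each above the mean of its group. By contrast, steer 5613 of HF was the second highest of all libraries for CSRP3 in ZG (749) and had 60.8 in H1. MYL6B moved with it in that steer, from 28.0 in H1 to 521 in ZG.

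**Figure D3:**
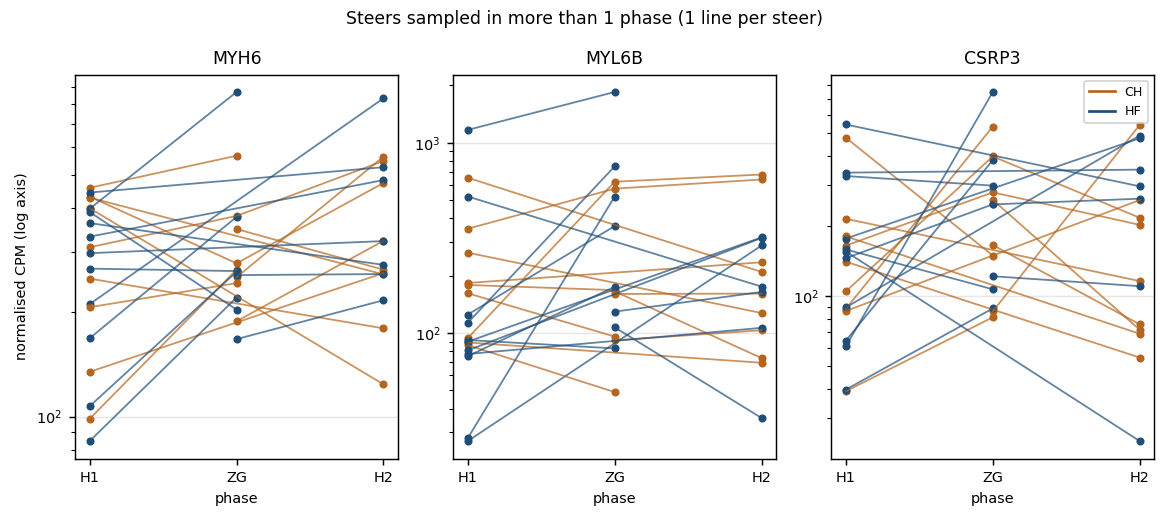
Normalised CPM (log axis) of the 3 genes in the 25 steers with libraries from more than 1 phase, with 1 line per steer, brown for CH and blue for HF. Lines cross in every panel; the highest MYL6B line is steer 5632 of HF (1168 in H1 and 1848 in ZG).

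Correlation between steers was computed for each pair of the 3 genes. Pearson's r was computed on log2 normalised CPM within each breed and phase, with each RFI class centred on its own mean, which gave 18 values over 14 to 20 steers. All 18 were above 0, from 0.08 to 0.75, and 11 had an adjusted permutation p under 0.1 (10 by Spearman's rho). The share of all gene pairs that would pass this test was not computed, so the count of 11 has no background. Pooled over libraries, 1865 of 10290 genes had an r above 0.5 with MYH6, 115 with MYL6B and 37 with CSRP3. MYL6B and CSRP3, the light chain and the Z-disc protein, passed in 5 of 6 breed and phase groups, MYH6 and MYL6B in 4, and MYH6 and CSRP3 in 2. In CPM of the library total, without TMM factors, each of the 3 pairs passed in 2 groups. The order by number of groups passed therefore held only with TMM factors. The r pooled over all libraries, given below, ranked the pairs alike on both scales.

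HF in H2 gave the highest values for the pairs with MYH6. There, over 16 steers, r was 0.75 for MYH6 and MYL6B (rho 0.68), 0.71 for MYH6 and CSRP3 (rho 0.70) and 0.66 for MYL6B and CSRP3 (rho 0.61). The permutation p-values of r were 0.00105, 0.00261 and 0.00569 (adjusted 0.0157, 0.0157 and 0.0256), and those of rho 0.00492, 0.00278 and 0.0137 (adjusted 0.0443, 0.0443 and 0.0619). Without the 2 steers farthest from the median of the first gene, r was 0.61, 0.60 and 0.54. The lowest library of both MYL6B and CSRP3, steer 5588, belongs to this group.

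MYL6B and CSRP3 were most closely related in HF in ZG, with r = 0.68 and rho = 0.59 over 19 steers (permutation p = 0.00176 and 0.00835, adjusted 0.0157 and 0.0501). Their r was 0.50 in CH in H1, 0.48 in CH in ZG, 0.48 in CH in H2 and 0.50 in HF in H1, with adjusted permutation p-values of 0.0605, 0.0806, 0.119 and 0.0537. MYH6 and MYL6B had r = 0.57 in CH in H1, 0.32 in CH in ZG, 0.46 in CH in H2, 0.51 in HF in H1 and 0.55 in HF in ZG, with adjusted permutation p-values of 0.0429, 0.238, 0.136, 0.05 and 0.0429. MYH6 and CSRP3 were the loosest pair. Outside HF in H2, their r passed the threshold only in CH in H2 (0.61, adjusted permutation p = 0.05) and was 0.35, 0.08, 0.31 and 0.24 in CH in H1, CH in ZG, HF in H1 and HF in ZG.

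Of the 11 correlations that passed, 9 still did so without the 2 steers farthest from the median of the first gene. MYL6B and CSRP3 in CH in ZG (0.48 to 0.33) and MYH6 and MYL6B in HF in H1 (0.51 to 0.35) rested on those steers. MYH6 and CSRP3 went from 0.35 to -0.08 in CH in H1.

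**Figure D4:**
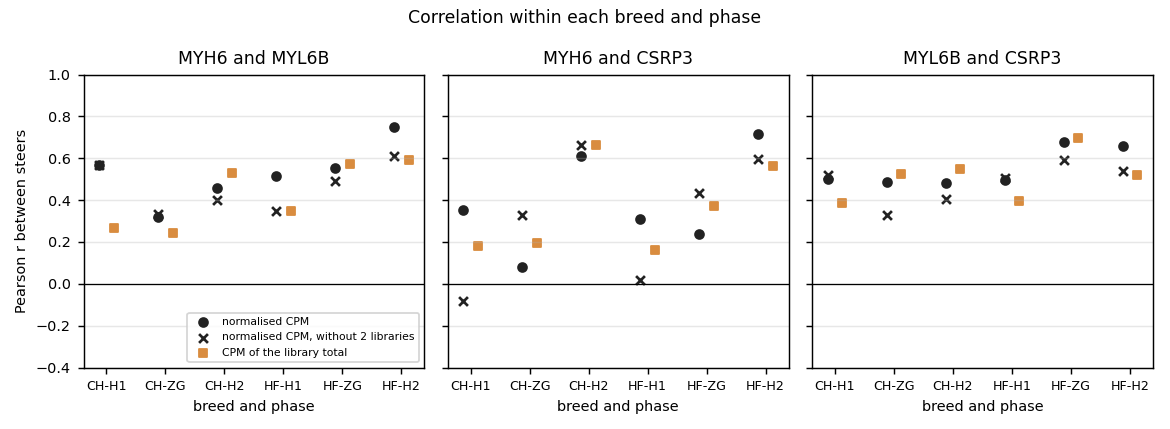
Pearson r between steers for each pair of genes in each breed and phase. Circles are normalised CPM, crosses the same without the 2 steers farthest from the median of the first gene, and squares CPM of the library total without TMM factors. All circles lie above 0, from 0.08 to 0.75, and MYH6 and CSRP3 scatter most.

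The correlations depended on how the libraries were scaled. In CPM of the library total, all 18 values remained above 0 (0.16 to 0.70) but 6 had an adjusted permutation p under 0.1, and 0 of those did so without the 2 farthest steers. Pooled over the 104 libraries and centred on the 12 group means, as a description over libraries that partly share steers, r was 0.54 for MYH6 and MYL6B, 0.43 for MYH6 and CSRP3 and 0.57 for MYL6B and CSRP3. Without TMM factors these were 0.43, 0.37 and 0.52. The correlation of the centred level with the log2 TMM factor was -0.63 for MYH6, -0.38 for MYL6B and -0.22 for CSRP3 in normalised CPM, and -0.15, -0.08 and 0.12 in CPM of the library total. The correlation with the share of reads not on a gene was -0.40, -0.36 and -0.22, and with log2 gene counts -0.08, 0.06 and 0.14. The part of library composition in the correlations was not tested beyond these values.

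**Figure D5:**
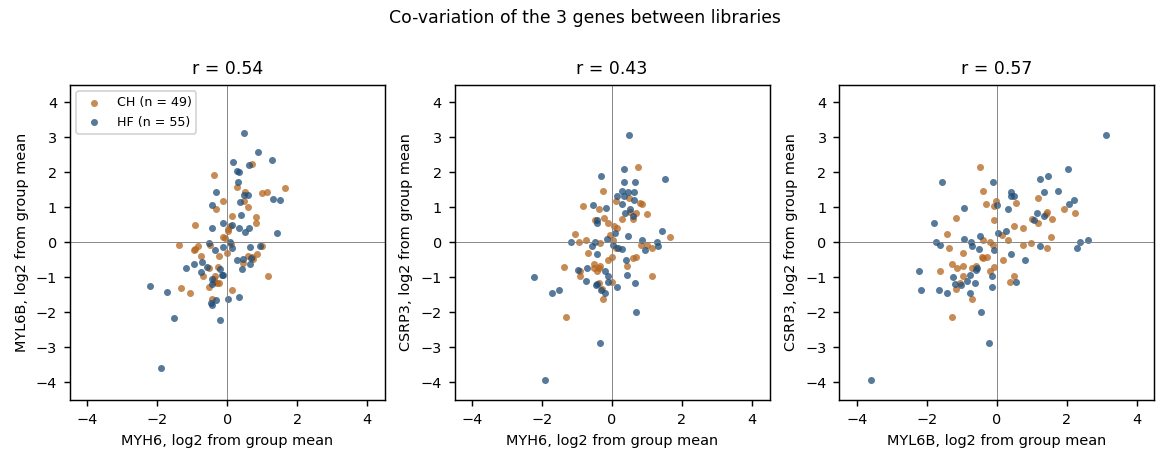
Log2 normalised CPM of each pair of genes in the 104 retained libraries, each centred on the mean of its breed, phase and RFI class, with CH in brown and HF in blue. Points rise together in all panels (r = 0.54, 0.43 and 0.57), and MYH6 spreads less than MYL6B and CSRP3.

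Against all other genes, the 3 members stood differently. Over the 104 centred libraries, MYH6 had an r above 0.5 with 1865 of 10290 genes, MYL6B with 115 and CSRP3 with 37. Seen from CSRP3, MYL6B was the 16th most similar gene and MYH6 the 64th. From MYL6B, CSRP3 was the 29th and MYH6 the 45th, whereas from MYH6, MYL6B came only 1321st and CSRP3 2501st. Among the 50 genes most similar to each, other than the members, MYL6B and CSRP3 shared 20, MYH6 and MYL6B 6, and MYH6 and CSRP3 5. These similarities, here and below, were computed with TMM factors only. MYH6 was also the member most correlated with the log2 TMM factor (-0.63, against -0.38 for MYL6B and -0.22 for CSRP3). The quartiles of r over all genes were -0.42 and 0.43 for MYH6, and -0.10 and 0.18 for CSRP3. The part of scaling in these counts and ranks was not tested.

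None of the 15 places among the 5 most similar genes of each member went to a gene with a paired symbol, and none of the 9 lowest did. The gene most similar to MYL6B was ENSBTAG00000018369 (r = 0.78) and the gene most similar to MYH6 was ENSBTAG00000009703 (r = 0.77). The lowest r was -0.70 for MYH6, -0.53 for MYL6B and -0.49 for CSRP3. Among genes with a paired symbol, ACTC1 had an r of 0.51 with CSRP3, 0.45 with MYL6B and 0.37 with MYH6. PLN had -0.05, -0.23 and -0.41, and MYH4 -0.03, -0.11 and -0.07, in the same order. The slow-fibre gene PLN thus did not rise with any of the 3 members.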

How the data were processed

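RNA from longissimus biopsies was sequenced as single-end reads from a stranded mRNA kit. The deposited files hold counts per gene and strand, which the authors made with STAR. The processing notes in the labels name the UMD3.1 build, STAR 2.5.1, FastQC 0.11.5, HTSeq and DESeq2, whereas the study's methods describe another bovine assembly, so the build is uncertain and no coordinates are given. Reverse-strand counts were used (median 99.0% of stranded gene counts). Of 111 libraries, 6 with fewer than 1000000 gene counts and that of steer 571 in ZG were left out.

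Genes with at least 1 CPM in 50% of the libraries fitted were kept. RFI classes were compared by edgeR 4.0.16 (quasi-likelihood test), and breeds and phases by limma 3.58.1 (voom) with the steer, numbered in the sample titles, as a block. The block pairs libraries of the same animal. Genes were called at a Benjamini-Hochberg adjusted p under 0.1 and a fold change above 1.5. Correlations were computed on log2 CPM (prior count 2) with 100000 two-sided permutations, adjusted over 18 values. Alternatives included DESeq2 1.42.0. The fits were tested on simulated data, where the 6 RFI fits recovered 25 to 81 of 100 genes changed 2-fold and 81 to 96 of 100 changed 4-fold. The changed genes were drawn at random from all genes. Of all genes, 72.4% varied less than MYH6, 98.1% less than MYL6B and 96.6% less than CSRP3. The recovery therefore does not apply to the members, for which it was not tested.

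The named genes were the members, the genes of the marker and muscle lists with a paired symbol (24 of 81), and the 5 most and 3 least similar genes of each member. Members and lists were chosen with earlier results of these data known, and the study's own gene lists, from which the symbols of the members come, were made from these samples. Of the 198 identifiers in those lists, 25 were not analysed here.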

Additional observations from a re-analysis of the deposited data

Results flagged for a closer look

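In 9 of 33 combinations of gene and group, the highest library stood apart from the rest by Dixon's test on normalised CPM, not on the log2 scale. The test's rate of about 1 in 20 flags by chance holds for normally distributed values. Levels of these genes were skewed towards high values, so the 9 flags cannot be set against that rate. For MYH6 these were steer 545 of CH (L-RFI, ZG; 1138 normalised CPM, next 545), steer 2259 of HF (L-RFI, H1; 882, next 444) and steer 5632 of HF (L-RFI, ZG; 868, next 505). For MYL6B they were steer 1100 of CH (H-RFI, H2) at 641, steer 307 of CH (L-RFI, H2) at 681, steer 5609 of HF (H-RFI, H2) at 748, steer 2272 of HF (H-RFI, ZG) at 1664 and steer 5632 of HF (L-RFI, ZG) at 1848. For CSRP3, steer 2272 of HF (H-RFI, ZG) stood apart at 1665, where the next library had 749. Steers 2272 and 5632 were each flagged for 2 genes.

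Reads on the strand opposite to each gene were 0.407% of those on both strands together for MYH6, 0.0958% for MYL6B and 0.135% for CSRP3 over the 104 libraries. More than 3 counts were found in 5 of the 7 left-out libraries for MYH6, in 3 for MYL6B and in 5 for CSRP3.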

How the results depend on the processing

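Among differences and F statistics of the 3 genes recomputed under other settings, 388 were labelled unchanged, 22 turned and 4 lost the call. Unchanged differences kept their direction and their side of the threshold. F statistics have no direction, so for them only the side of the threshold counted. With all libraries, MYL6B from ZG to H2 in HF was -0.95 and MYH6 was 0.36 between breeds in ZG. MYH6 was then -0.21 from H1 to ZG in CH, and 0.24 in CH and 0.074 in HF from ZG to H2. CSRP3 was -0.25 from H1 to ZG in CH. This setting adds steer 571 to CH in ZG, with 7, 3 and 2 counts of MYH6, MYL6B and CSRP3. Without a filter on low counts, MYL6B from ZG to H2 in HF was -1.05 and MYH6 0.0218; with unstranded counts they were -1.04 and 0.0234, and CSRP3 from H1 to H2 in HF was 0.00142. With quality weights, MYL6B was -0.85 and MYH6 0.0521 from ZG to H2 in HF, CSRP3 was 0.0731 from H1 to H2 in HF, and MYL6B in CH was 0.0842 from H1 to ZG and -0.18 from ZG to H2. Without TMM factors, chosen after seeing the data, MYH6 was 0.24 between breeds in ZG, and -0.0367 from H1 to ZG and -0.10 from H1 to H2 in CH. MYH6 was -0.25 from H1 to H2 in HF, and CSRP3 was -0.039 for RFI over all libraries. The median difference of all genes also moved, to 0.313, -0.375, -0.285, -0.495 and -0.143 in the same order. With TMM factors these medians were 0.049, -0.052, -0.069, -0.071 and -0.0098. The causes were not tested.

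When only the steer block was dropped (limma voom, no pairing, added after seeing the data), the MYL6B difference from ZG to H2 in HF was -1.09 (adjusted p = 0.0981), MYH6 there was 0.00983, and 11 genes were called between breeds in H2. No other call or direction of the 3 genes changed. Under an unpaired fit by edgeR (quasi-likelihood), which changes the test as well as the pairing, MYL6B was 0.057 between breeds in H1, MYH6 was 0.21 from ZG to H2 in HF, and CSRP3 was 0.13 from H1 to H2 in HF and -0.00643 for RFI over all libraries. Genes called by this test were 323 between breeds in ZG, 172 from H1 to H2 in CH, 995 from H1 to H2 in HF and 1 for the interaction, and these moves cannot be assigned to the block (limma voom without it called 185, 249, 1382 and 0).

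Over all genes, counts called moved as follows. RFI called 2 genes in CH in H1 and 2 in CH in H2 with DESeq2, 1 in HF in ZG with DESeq2, and 2 and 1 in CH in H1 and H2 with the exact test. Between breeds, 26 genes in H1 became 8 with all libraries, 17 without the filter and 138 with weights, 172 in ZG became 4, 679 without TMM factors and 874 with weights, and 20 in H2 became 1, 10, 2 without TMM factors and 197 with weights. In CH, 239 from H1 to ZG became 40 with all libraries, 1717 without TMM factors and 686 with weights, 110 from ZG to H2 became 45 and 33, and 266 from H1 to H2 became 43, 489 without the filter, 509 without TMM factors and 442 with weights. In HF, 67 from H1 to ZG became 13 with all libraries, 711 from ZG to H2 became 230, 1788 without TMM factors and 2001 with weights, and 1665 from H1 to H2 became 884 and 4211. With weights, 21 genes were called for RFI over all libraries, 3222 for the interaction and 1 for the difference of RFI effects.

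Of the correlations, those on CPM of the library total lost the call for MYH6 and MYL6B in CH in H1 (0.27) and HF in H1 (0.35), and for MYL6B and CSRP3 in CH in H1 (0.39), HF in H1 (0.40) and HF in H2 (0.52), leaving 6 of 18. With all libraries, MYH6 and MYL6B in CH in ZG (0.90), MYH6 and CSRP3 in CH in ZG (0.85) and in HF in ZG (0.43), and MYL6B and CSRP3 in CH in H2 (0.51) passed, and MYL6B and CSRP3 in HF in H2 (0.42) did not. Without the 2 libraries farthest from the median of the first gene, those that passed became 0.43, 0.10, 0.29 and 0.43. None then passed (lowest adjusted permutation p 0.135). In CH in ZG this setting adds steer 571, with 7, 3 and 2 counts of the 3 genes, and steer 357, with 4019 gene counts.

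Leaving out 1 library at a time, the RFI difference ran from -0.14 to 0.45 for MYH6 and -0.61 to 0.0504 for MYL6B in CH in ZG, and for CSRP3 from -0.0583 to 0.75 in CH in H2, -0.37 to 0.26 in HF in H1 and -0.55 to 0.28 in HF in ZG. For MYL6B it ran from 0.42 to 1.22 in HF in H1, 0.13 to 1.53 in HF in ZG and -1.04 to -0.0033 in CH in H2, and for MYH6 from 0.36 to 0.71 in HF in H1 and 0.22 to 0.53 in HF in ZG. In HF in H2 it ran from -0.35 to 0.0624 for MYH6, -0.58 to 0.27 for MYL6B and -0.0525 to 0.44 for CSRP3. From ZG to H2 in HF, MYH6 ran from -0.12 to 0.15, MYL6B from -1.23 to -0.83, and the genes called from 469 (without steer 1811 in H2) to 1078 (without steer 5632 in ZG). The MYL6B call was lost without the ZG library of steer 1668, 1961, 2064, 2065, 2094, 2272, 5613, 5616 or 5632, or the H2 library of steer 718, 1657, 1913, 2071, 2095, 2297, 5588, 5612 or 5617.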

Other observations

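The library of steer 571 (CH, ZG), left out of all comparisons, had 13818659 gene counts but only 7 of MYH6, 3 of MYL6B and 2 of CSRP3. A total of 3 counts stood for 0.217 CPM in it. The lowest retained library of each gene had 358, 96 and 75 counts.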
